A study of Mus musculus with 6 samples.

Results

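The 8 genes described here, *Mbp*, *Pmp22*, *Prx*, *Pmp2*, *S100b*, *Sox10*, *Cdh19* and *Egr2*, are markers of Schwann cells and of the myelin that these cells wrap around peripheral axons. They were picked by name with earlier results of these data known, without a threshold on any value, and they are 8 of the 18099 genes for which reads were deposited. RNA sequencing was performed on injured Achilles tendon tissue from 3 control mice (*Ampkα1* fl/fl) and 3 LysM-Cre; *Ampkα1* fl/fl mice, all neonatal and all taken 7 days after both tendons were transected. Both groups carried the floxed *Ampkα1* alleles, and only the second carried LysM-Cre, which is driven by the *Lyz2* locus and deletes in myeloid cells such as macrophages and neutrophils. Schwann cells are not among the cells that this Cre is used to target. The libraries were made from whole repair tissue, so each value is a sum over all the cells present. In such bulk samples, fewer cells of a type and less RNA per cell cannot be told apart.

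Schwann cells are the glia of peripheral nerves. Each myelinating Schwann cell is bound to a single stretch of axon and winds its membrane into compact myelin, a stack of lipid held together by a small set of very abundant proteins. The transcription factor Sox10 defines the lineage from the neural crest onwards, and Egr2 (also called Krox20) acts with Sox10 to switch on the myelin genes around birth. When an axon is cut, Schwann cells downstream of the injury lower their myelin genes and take up a repair state marked by genes such as *Ngfr* and *Gap43*. Non-myelinating Schwann cells keep Sox10 but make little myelin protein.

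Library totals were between 18076805 and 19479887 reads. *Lyz2*, whose coding sequence is interrupted by Cre, had 7372 to 7778 reads in the control libraries and 8 to 15 in the LysM-Cre libraries, which separates the genotypes as labelled. *Prkaa1*, which encodes AMPKα1, had 688 to 740 reads in the control and 626 to 751 in the LysM-Cre libraries, and reads summed over the whole gene in whole tissue do not report on the floxed part in myeloid cells. The tendon markers *Scx* and *Tnmd* were present in every library, at 1912 to 2601 and 29222 to 37910 reads. Libraries of one genotype differed in other tissue genes as well. The summed level of 14 skeletal muscle genes ran from 233 CPM (reads scaled to a common library total) in control 1 to 11300 CPM in LysM-Cre 3, and the cartilage collagen *Col2a1* had 38245 reads in control 2 against 4103 to 6642 in the other libraries.

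All 8 genes were expressed, and all 8 passed the filter on low counts. Of the 8, 0 differed between the genotypes by edgeR's quasi-likelihood test at an adjusted p of 0.05, against 128 of all 14261 genes tested (0.898%). With an unadjusted p under 0.05 there were 0 of the 8, against 14.5% of all genes, and DESeq2 also called 0. The control and LysM-Cre libraries overlapped in CPM for all 8 genes, whereas they did not overlap for 20.4% of all genes. What the data show instead is a spread between mice of the same genotype, and it was far wider for the myelin proteins than for the genes that mark the lineage.

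**Figure D1:**
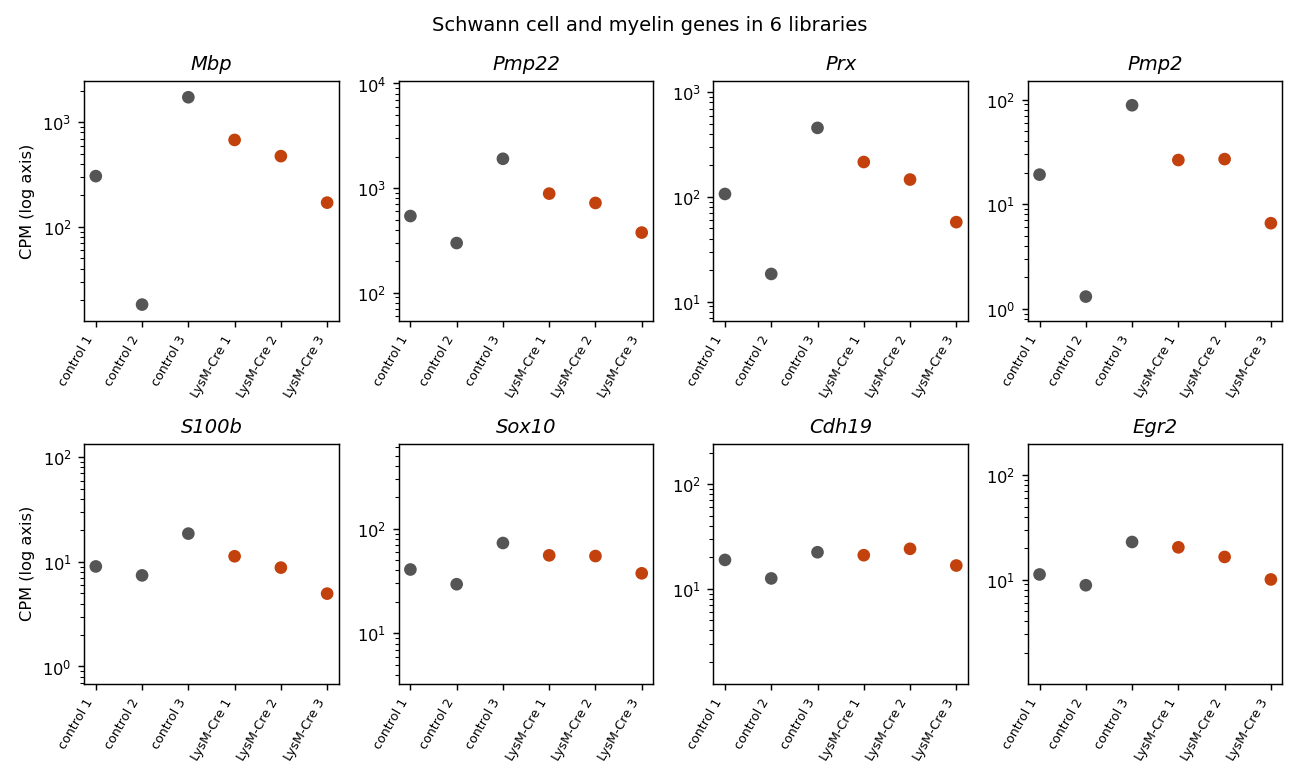
CPM of the 8 genes in each of the 6 libraries, 1 point per mouse, on log axes that span the same fold in every panel (grey, control; orange, LysM-Cre; *Ampkα1* fl/fl). Control 3 is the highest library for 7 of the 8 genes and control 2 the lowest for 7, with a 96.0-fold range for *Mbp* and a 1.92-fold range for *Cdh19*.

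The myelin proteins are described first. *Mbp* encodes myelin basic protein, which holds the inner faces of the myelin membrane together. It had 306, 18.1 and 1736 CPM in control 1, 2 and 3, and 678, 475 and 171 CPM in LysM-Cre 1, 2 and 3. The 3 LysM-Cre mice therefore lay inside the range of the controls, whose lowest and highest libraries were 96.0-fold apart. The mean was 687 ± 920 CPM in controls and 441 ± 256 CPM in LysM-Cre mice (SD, n = 3 each), and the log2 fold change of LysM-Cre over control was -0.64 with a standard error (SE) of 1.26 and a 95% confidence interval of -3.64 to 2.36 (edgeR adjusted p = 0.873).

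*Pmp22* encodes peripheral myelin protein 22, a tetraspan membrane protein of compact myelin whose gene dosage is altered in inherited neuropathies. Its level was 541, 298 and 1906 CPM in the control libraries and 885, 721 and 376 CPM in the LysM-Cre libraries. Its range, 6.39-fold, was narrower than that of *Mbp*, and the libraries came in the same order. The log2 fold change was -0.47 (SE 0.67, 95% confidence interval -2.06 to 1.12, edgeR adjusted p = 0.811).

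*Prx* encodes periaxin, which links the Schwann cell surface to the basal lamina through the dystroglycan complex. It had 107, 18.4 and 457 CPM in the control libraries and 216, 147 and 57.5 CPM in the LysM-Cre libraries. The range was 24.9-fold in controls and 3.76-fold in LysM-Cre mice. The log2 fold change was -0.47 (SE 1.00, 95% confidence interval -2.85 to 1.91, edgeR adjusted p = 0.882).

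*Pmp2* encodes a fatty acid-binding protein of the myelin of larger fibres. It was the scarcest of the 4, with 19.2, 1.31 and 88.5 CPM in the control libraries and 26.5, 27.0 and 6.59 CPM in the LysM-Cre libraries. Its 67.5-fold range rests on 24 reads in control 2 and 1614 in control 3. The log2 fold change was -0.86 (SE 1.15, 95% confidence interval -3.58 to 1.87, edgeR adjusted p = 0.795).

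The lineage markers were much steadier. *Sox10* had 40.8, 29.5 and 73.1 CPM in the control libraries and 55.7, 54.8 and 37.5 CPM in the LysM-Cre libraries. Control 3 and control 2 were again the highest and the lowest, but only 2.48-fold apart. Its log2 fold change was 0.05 (SE 0.33, 95% confidence interval -0.74 to 0.83, edgeR adjusted p = 0.970). *Egr2*, the factor that drives myelin genes, had 11.2, 8.85 and 22.9 CPM in the control and 20.4, 16.5 and 10.1 CPM in the LysM-Cre libraries. Its log2 fold change was 0.13 (SE 0.40, 95% confidence interval -0.82 to 1.07, edgeR adjusted p = 0.925). *Egr2* is also induced in macrophages and in tendon cells, so its reads need not come from Schwann cells alone.

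*Cdh19* encodes a cadherin typical of Schwann cell precursors and of peripheral glia. Its level was 18.9, 12.6 and 22.4 CPM in the control and 21.0, 24.1 and 16.7 CPM in the LysM-Cre libraries, the narrowest range of the 8 genes at 1.92-fold. It was the only one whose highest library was a LysM-Cre library. The log2 fold change was 0.20 (SE 0.23, 95% confidence interval -0.34 to 0.74, edgeR adjusted p = 0.750). *S100b*, a calcium-binding protein of glia that cartilage and fat cells also make, had 9.05, 7.43 and 18.6 CPM in the control and 11.3, 8.82 and 4.97 CPM in the LysM-Cre libraries. It was the only one of the 8 that was lowest in LysM-Cre 3 and not in control 2. Its log2 fold change was -0.48 (SE 0.42, 95% confidence interval -1.48 to 0.51, edgeR adjusted p = 0.660).

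**Figure D2:**
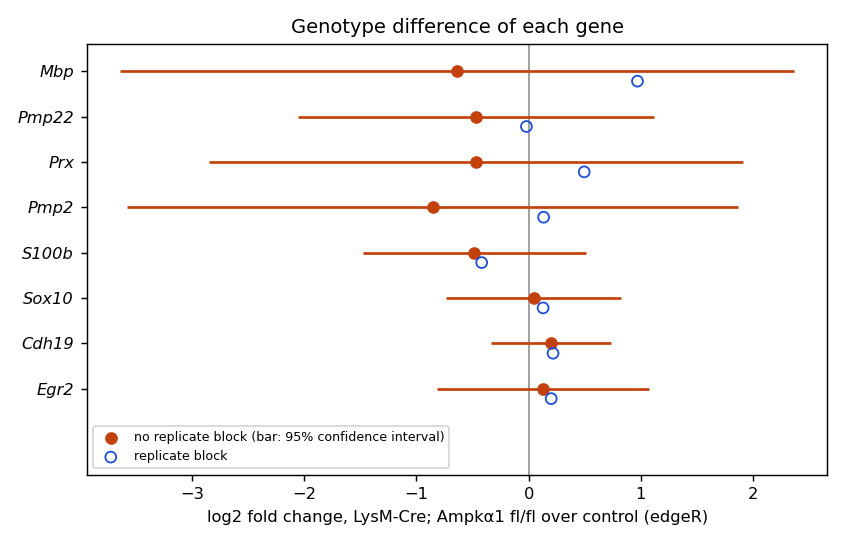
Log2 fold change of LysM-Cre; *Ampkα1* fl/fl over control for each gene from edgeR on 3 against 3 libraries, with its 95% confidence interval (orange), and the estimate from the fit that pairs mice by replicate number (open blue circles). All 8 intervals include 0, and the estimates of *Mbp*, *Prx* and *Pmp2* lie on the other side of 0 in the paired fit.

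The intervals show what these libraries could and could not resolve. For *Cdh19* the interval leaves out log2 changes below -0.34 or above 0.74, whereas for *Mbp* it admits changes of more than 2 log2 units both ways. The exact two-sided permutation test on log2(CPM + 0.5), which cannot go below 0.1 with 3 against 3 libraries, gave p-values between 0.5 and 1 for the 8 genes. The sign of the difference hung on single mice. Without control 3, all 8 estimates were above 0 (*Mbp* 1.45, *Pmp22* 0.66, *Prx* 1.16, *Pmp2* 0.96), and without control 2 all 8 were below 0 (*Mbp* -1.21, *Pmp22* -0.89, *Prx* -1.01, *Pmp2* -1.42). Paired by replicate number, which is an assumption, LysM-Cre 1 was above control 1 and LysM-Cre 2 above control 2 for all 8 genes. LysM-Cre 3 was below control 3 for all 8. For *Mbp* the 3 log2 differences were 1.15, 4.68 and -3.34. In the fit with a block for each pair, the estimates of *Mbp*, *Prx* and *Pmp2* were 0.97, 0.50 and 0.13, and again 0 of the 8 passed the test.

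The libraries came in one order for most of these genes. From high to low, it was control 3, LysM-Cre 1, LysM-Cre 2, control 1, LysM-Cre 3 and control 2, and it was the same in *Mbp*, *Pmp22*, *Prx*, *Sox10* and *Egr2*. Of all genes tested, 113 of 14261 (0.792%) had that order. *Pmp2* differed from it only in that LysM-Cre 1 and LysM-Cre 2, at 26.5 and 27.0 CPM, changed places. By the standard deviation (SD) of log2(CPM + 0.5) over the 6 libraries, *Mbp* ranked 8th and *Pmp2* 31st of 14261 genes, with SDs of 2.24 and 1.93. *Prx* ranked 120th and *Pmp22* 350th, while *Sox10* ranked 1151st and *Cdh19* 2124th. The median SD of all genes was 0.14.

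Per transcript length, the order of levels among the genes also depended on the mouse. The TPM value, a level scaled to transcript length that can be compared between genes, averaged 1211 ± 1161 in controls and 874 ± 353 in LysM-Cre mice for *Pmp22* and 798 ± 1076 and 509 ± 298 for *Mbp* (SD, n = 3 each). These were followed by *Prx* (86.7 ± 103 and 62.4 ± 35.1 TPM), *Pmp2* (70.2 ± 89.2 and 38.9 ± 23.1 TPM) and *Sox10* (39.9 ± 19.4 and 41.3 ± 9.39 TPM). *S100b* averaged 17.5 ± 9.27 and 12.6 ± 4.87 TPM, *Egr2* 10.9 ± 5.81 and 11.8 ± 4.03 TPM, and *Cdh19* 9.09 ± 2.63 and 10.4 ± 2.21 TPM. In controls, the ranges of neighbours in this order overlapped. Within each of the 6 libraries, however, *Pmp22* was above *Mbp*, *Mbp* above *Prx*, *Prx* above *Pmp2* and *Sox10* above *S100b*. The other neighbours did not keep one order in every library. In LysM-Cre mice the libraries of *Mbp* (188 to 776 TPM) and *Prx* (25.0 to 94.7 TPM) did not overlap, and other neighbours did except *Sox10* and *S100b* (30.5 to 47.3 against 7.23 to 16.8 TPM). In control 3 the level of *Mbp* (2026 TPM) was close to that of *Pmp22* (2537 TPM), but in control 2 *Mbp* was at 15.9 TPM, below *Sox10* at 23.9 TPM, and *Pmp2* was at 2.45 TPM. The *Egr2* transcript is listed under 2 identical entries that together made up 82.4% to 98.7% of its summed TPM. Its level relative to other genes may therefore be counted double. Since that share differed between libraries, its ratio between libraries may be affected as well.

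Dividing each gene's TPM by that of *Sox10* in the same library gives its level relative to the lineage factor. The ratio of *Mbp* to *Sox10* was 10.2, 0.66 and 33.0 in the control libraries and 16.8, 11.9 and 6.18 in the LysM-Cre libraries, a 49.7-fold range. It was 27.2-fold for *Pmp2*, 9.93-fold for *Prx* and 2.62-fold for *Pmp22*. In contrast, the ratio to *Sox10* had a range of 1.93-fold for *S100b*, 1.52-fold for *Cdh19* and 1.36-fold for *Egr2*. *Erbb3*, the neuregulin receptor on which Schwann cells depend, kept between 0.34 and 0.39 of the *Sox10* level in all 6 libraries, a 1.15-fold range. Myelin RNA thus differed between mice relative to *Sox10* as well as in its own level. The mean log2 CPM of the 4 myelin genes exceeded that of *S100b*, *Sox10* and *Cdh19* by 2.80, 0.52 and 4.25 in the controls and by 3.33, 3.05 and 2.23 in the LysM-Cre mice, and here too the LysM-Cre values lay within those of the controls.

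**Figure D3:**
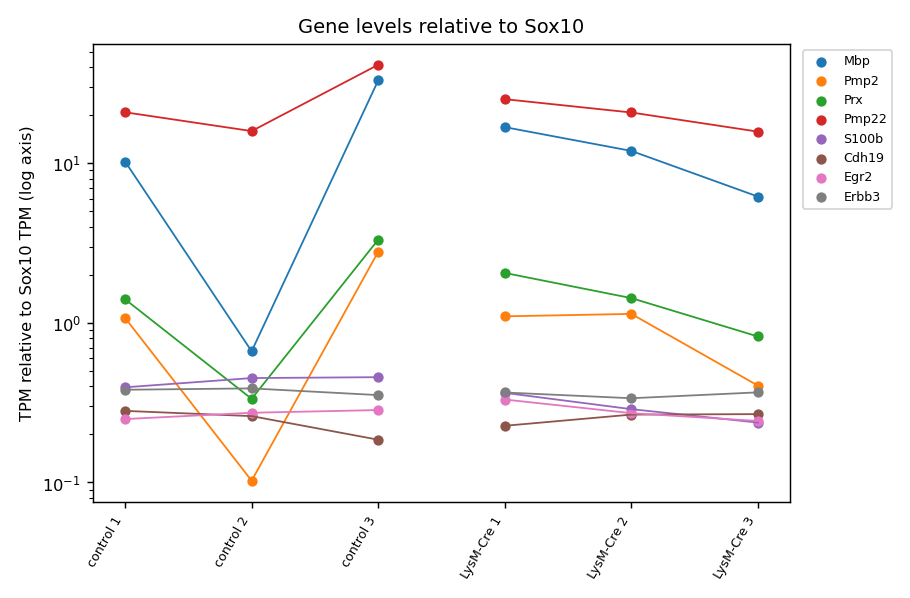
TPM of 8 Schwann cell genes divided by the TPM of *Sox10* in the same library, on a log axis, 1 point per mouse; lines only join the points of a gene within a genotype. *Mbp*, *Pmp2* and *Prx* are lowest in control 2 and highest in control 3, whereas *Erbb3* stays between 0.34 and 0.39.

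The split also ran through single genes, by where their transcripts start. *Pmp22* has several annotated start sites. In the Schwann cell field, the first is known as the promoter used in myelinating cells and the second as the one used in many tissues. Transcripts from the first start (63128982 on chromosome 11 of GRCm38, 3 transcripts) had 372, 84.1 and 1747 TPM in the control libraries and 679, 516 and 182 TPM in the LysM-Cre libraries, a 20.8-fold range. Transcripts from the second start, 2.53 kb downstream (3 transcripts), had 339, 277 and 766 TPM in the control libraries and 470, 452 and 285 TPM in the LysM-Cre libraries, a 2.77-fold range. Both starts had the library order of *Mbp*. The first start thus gave 22.2% of all *Pmp22* TPM in control 2 and 68.9% in control 3, with 37.9% to 58.5% in the LysM-Cre libraries. A further start downstream gave 4.88 to 12.1 TPM. The values of single transcripts are the authors' estimates from reads that mostly fall in exons the transcripts share, and they carry an error that is not given.

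The sequences before the 2 main *Pmp22* starts and before the single *Prx* start are shown. The first *Pmp22* start and *Prx* varied widely between mice, and the second *Pmp22* start varied less, in the same library order. They are the 250 bases upstream of each start in the RefSeq promoter table for GRCm38.p6, on the plus strand, 5′ to 3′, with each CG pair in capitals. The second *Pmp22* start of this table, 63131457, lies a little upstream of the 63131512 at which the transcripts of that group begin in GENCODE.
*Pmp22* first start, chr11:63128732-63128981: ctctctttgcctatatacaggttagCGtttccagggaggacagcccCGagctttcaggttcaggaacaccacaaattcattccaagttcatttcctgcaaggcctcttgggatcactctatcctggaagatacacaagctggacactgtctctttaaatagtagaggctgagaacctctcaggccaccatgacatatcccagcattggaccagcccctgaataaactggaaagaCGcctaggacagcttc
*Pmp22* second start, chr11:63131207-63131456: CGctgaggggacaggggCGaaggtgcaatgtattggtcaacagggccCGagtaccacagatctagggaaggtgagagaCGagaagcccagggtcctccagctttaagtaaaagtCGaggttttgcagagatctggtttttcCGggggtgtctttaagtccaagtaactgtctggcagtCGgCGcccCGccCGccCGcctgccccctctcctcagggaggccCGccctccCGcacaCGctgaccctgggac
*Prx*, chr7:27499074-27499323: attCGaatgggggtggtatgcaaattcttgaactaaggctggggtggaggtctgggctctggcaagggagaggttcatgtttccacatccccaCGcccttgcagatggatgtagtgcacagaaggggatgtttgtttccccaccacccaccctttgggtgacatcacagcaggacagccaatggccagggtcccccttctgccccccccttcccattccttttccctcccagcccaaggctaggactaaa
The stretch before the first *Pmp22* start has 3 CG pairs and that before *Prx* has 2, against 14 before the second *Pmp22* start and a median of 6 in 32851 mouse promoters of the same length. The stretch before the only *S100b* start has 2. A GC box (GGGCGG on either strand), present in 32.7% of all promoters, was found before the second *Pmp22* start and not before the first or before *Prx*. The letters TATAAA (12.4% of promoters), the SOX-type words ACAAAG or ACAATG (25.2% for either) and the EGR-type words GCGGGGGCG or GCGTGGGCG (3.06% for either), searched on both strands, were in none of the 3 windows. A match is only a description of these letters, and enhancers outside the windows were not searched. The second start drives RNA in many cell types, so its reads need not come from Schwann cells.

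*Mbp* showed the same kind of split. Its locus has an upstream start, from which the golli transcripts found in immune cells and in neurons arise, and 79.3 kb further on a downstream start for the classic myelin basic proteins. The 6 transcripts from the downstream start together had 348, 12.1 and 2015 TPM in the control libraries and 769, 560 and 185 TPM in the LysM-Cre libraries. They were 166-fold apart between control 2 and control 3, a wider range than that of the whole gene. The 2 upstream transcripts had 4.50, 3.46 and 9.13 TPM in the control and 5.86, 4.32 and 3.40 TPM in the LysM-Cre libraries, a 2.69-fold range. They made up 21.8% of all *Mbp* TPM in control 2 and between 0.45% and 1.81% in the other libraries.

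*Prx* has 1 start and 2 main products, the long periaxin of 1391 residues and a short form of 148 residues. The long form took 72.8% to 82.8% of *Prx* TPM, and both forms had the library order of the gene, with ranges of 22.5-fold for the long and 39.8-fold for the short. Tested singly against genotype, 30 transcripts of the 8 genes gave 0 calls with edgeR, and 1 of 35819 transcripts was called in all.

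**Figure D4:**
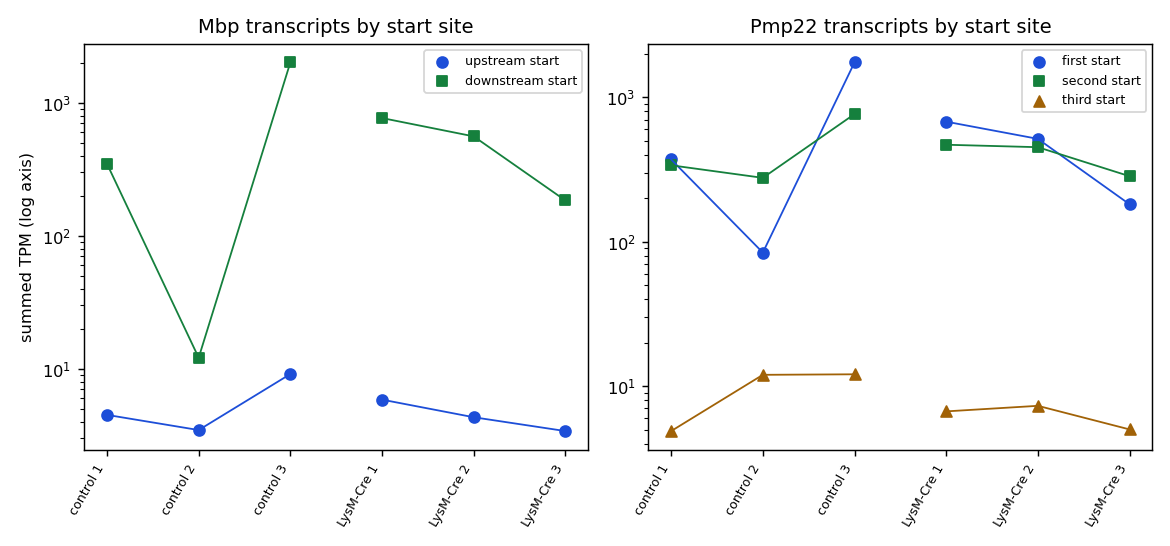
Summed TPM of *Mbp* (left) and *Pmp22* (right) transcripts by annotated start site in each library, on log axes; lines only join points of a start within a genotype. The downstream *Mbp* start and the first *Pmp22* start range 166-fold and 20.8-fold between mice, the upstream *Mbp* start and the second *Pmp22* start 2.69-fold and 2.77-fold.

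Other genes of compact myelin gave the same picture. A list of 16 further genes for myelin proteins, junctions and lipids held 0 genes that differed between the genotypes (smallest edgeR adjusted p 0.579), with 1 estimate above 0 and 15 below and a median log2 fold change of -0.36, against -0.002 for all genes. In the fit with a block for each pair, 13 of the 16 estimates were above 0 and 3 below, with a median of 0.41 and again 0 called, so the direction of the list was not fixed. All 16 were highest in control 3 (17.9% of all genes were), 14 of 16 were lowest in control 2 (16.6% of all genes), and 13 of 16 had exactly the library order of *Mbp*. Their SD was over 1 on the log2 scale for 11 of 16, against 2.31% of all genes. *Mag*, which encodes the myelin-associated glycoprotein that faces the axon, had 16.1, 2.13 and 76.4 CPM in the control libraries and 34.7, 26.9 and 8.38 CPM in the LysM-Cre libraries, a 35.8-fold range. Its log2 fold change was -0.43 (SE 1.05, edgeR adjusted p = 0.897). *Ugt8a*, which makes the myelin lipid galactosylceramide, ranged from 0.93 to 118 CPM and *Cldn19*, a tight junction protein of Schwann cells, from 4.10 to 156 CPM. *Mpp6*, a scaffold protein, ranged only 1.54-fold. *Ugt8a* and *Cldn19* were named after their values were seen.

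The genes of Schwann cell identity and signalling stayed closer together. Of 14 transcription factors and receptors tested, 0 differed between the genotypes at the adjusted threshold. An unadjusted p under 0.05 was found for 2 of the 14, against 14.5% of all genes. The median SD was 0.25, and none had an SD over 1. The library pattern of the myelin genes was nevertheless present. Of the 14, 8 were highest in control 3 (17.9% of all genes) and 6 lowest in control 2 (16.6%). The order of *Mbp* was found in 4 of the 14 (0.792% of all genes). Among these, *Gpr37l1* and *Pou3f1* ranged 8.67-fold and 5.87-fold, and *Pou3f2*, with 7 to 46 reads, 6.59-fold. These 3 were named after their values were seen. *Erbb3* had a log2 fold change of -0.0009 (SE 0.30, edgeR adjusted p = 0.999). *Zeb2*, a repressor needed for myelination that many other cells express, had 119 to 147 CPM in the control and 90.7 to 115 CPM in the LysM-Cre libraries, without overlap (log2 fold change -0.38, SE 0.12, edgeR adjusted p = 0.212, called by DESeq2). *Nab1*, a corepressor of Egr factors, had a log2 fold change of -0.17 (edgeR adjusted p = 0.336) and *Nrg1*, the ligand of *Erbb3*, 0.27 (edgeR adjusted p = 0.593). Among 8 receptors and laminins of the Schwann cell basal lamina, 0 were called, and their SDs were at most 0.36. Of these 8, 6 were highest in control 3 and 6 lowest in control 2. The 3 with the smallest unadjusted p were *Itgb4*, the integrin β4 partner of laminin, at -0.23, *Sgce*, a sarcoglycan, at -0.05, and *Lamc1*, a laminin chain, at -0.09 on the log2 scale.

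Genes of repair, immature and non-myelinating Schwann cells were read from the same fit. Of 16 tested, 1 was called. Estimates were above 0 for 11 of the 16 and below 0 for 5, *Ngfr* and *Gap43* among the latter. Their median log2 fold change was 0.12, against -0.002 for all genes. *Ncam1*, a cell adhesion molecule of non-myelinating Schwann cells that muscle also makes, rose from 66.5, 70.6 and 74.1 CPM in the controls to 99.5, 90.6 and 104 CPM in the LysM-Cre libraries, a log2 fold change of 0.48 (SE 0.07, edgeR adjusted p = 0.0413). The call was lost with the replicate block (adjusted p = 0.0634), with a skeletal muscle score as covariate (log2 fold change 0.38, adjusted p = 0.0668) and without any one of the libraries except LysM-Cre 2. The summed muscle genes, 233 to 3912 CPM in controls and 1267 to 11300 CPM in LysM-Cre libraries, overlapped between the groups. All 14 muscle genes nevertheless had estimates above 0, with a median log2 fold change of 1.81 and 0 called by edgeR. *Ngfr*, the low-affinity neurotrophin receptor of repair cells, had 63.6, 53.0 and 62.9 CPM in the control and 53.4, 53.1 and 44.9 CPM in the LysM-Cre libraries, a log2 fold change of -0.25 (SE 0.10, edgeR adjusted p = 0.322). Its ratio to *Sox10* ran against that of the myelin genes, from 0.67 in control 3 to 1.39 in control 2, a 2.09-fold range. *Ngfr* itself was not higher in control 2 than in control 3. The direction of the ratio came from *Sox10*, at 73.1 CPM in control 3 and 29.5 CPM in control 2. *Gap43*, a growth-associated protein of repair cells and growing axons, was chosen after its values were seen, and had 28.0 to 40.5 CPM in the control and 20.3 to 27.3 CPM in the LysM-Cre libraries (log2 fold change -0.54, SE 0.16, edgeR adjusted p = 0.186, called by DESeq2).

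**Figure D5:**
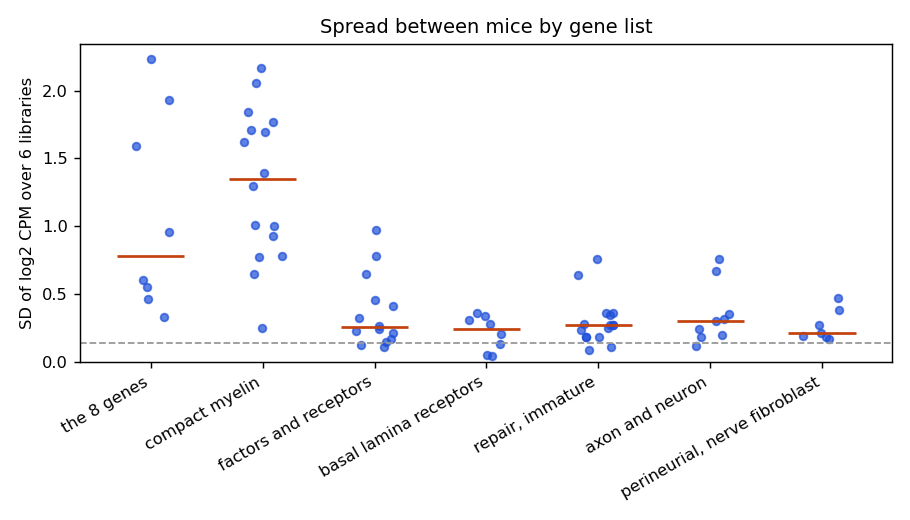
SD of log2(CPM + 0.5) over the 6 libraries for the tested genes of each list, 1 point per gene, with the median of the list (orange line) and of all tested genes (dashed, 0.14). The median was 1.35 for the compact myelin genes and between 0.22 and 0.30 for the other lists of nerve genes, with the 8 genes between at 0.78.

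Axons themselves hold little RNA, and their genes were sparse. Of 9 axon and neuron genes tested, 0 were called by edgeR and 2 by DESeq2. The neurofilament genes *Nefl* and *Nefm*, which build the axonal cytoskeleton, had 49 to 79 and 56 to 116 reads in the control libraries and 15 to 31 and 22 to 40 reads in the LysM-Cre libraries. The groups did not overlap in either gene, with log2 fold changes of -1.33 (SE 0.33, edgeR adjusted p = 0.131) and -1.44 (SE 0.34, edgeR adjusted p = 0.124), and those were the 2 that DESeq2 called. *Stmn2*, a microtubule regulator of neurons, had a log2 fold change of -0.44 (edgeR adjusted p = 0.327). *Nefh*, another neurofilament gene, overlapped between the groups (-0.12, edgeR adjusted p = 0.904). *Scn9a* went the other way without overlap, at 5 to 13 reads in control and 16 to 20 in LysM-Cre libraries (0.82, edgeR adjusted p = 0.401). Both were named after their values were seen. Of the 9 genes, 7 estimates were below 0, and 4 genes did not overlap, against 20.4% of all genes. *Tubb3* and *Prph*, the neuronal tubulin and peripherin, were at -0.09 and 0.07, with edgeR adjusted p-values of 0.890 and 0.883, and both changed sign with the muscle score as covariate. The library order of *Mbp* was found in 0 of the 9, and *Nefm* was highest in control 2, where the myelin genes were lowest.

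The markers of other cells that make some of these RNAs were examined next. *Mog* and *Mobp*, markers of oligodendrocytes, the myelinating cells of the brain, had 0 to 1 and 0 to 5 reads. Melanocytes also use *Sox10*. The melanocyte list summed to 42.6 to 53.3 CPM over the libraries, with 342 to 521 reads of *Kit*, which other cells also make, 73 to 87 of *Pmel*, 43 to 95 of *Dct* and 32 to 63 of *Tyrp1*, while *Tyr* and *Mlana* had 6 to 11 and 3 to 13. The 11 chondrocyte genes summed to 4216 CPM in control 2 and to 2126 to 2863 CPM elsewhere, and *Col2a1* alone was 49.6% of the sum in control 2. Without it, the other 10 genes summed to 1861 to 2126 CPM in controls and 2267 to 2581 CPM in LysM-Cre mice. The summed level of 7 adipocyte genes was highest in control 3, at 367 CPM, and lowest in LysM-Cre 2, at 66.8 CPM, so it shared its highest library with the myelin genes but not its lowest. The 14 muscle genes were highest in LysM-Cre 3, where *Mbp* was second lowest. The 8 genes for perineurial cells and nerve fibroblasts, the sheath cells of nerve bundles, summed to 258 to 296 CPM in controls and 222 to 251 CPM in LysM-Cre mice, with 0 of 7 tested called by edgeR. All 7 estimates were below 0 and 2 of the 7 did not overlap between the groups, against 20.4% of all genes. *Itga2*, an integrin of several cell types, had a log2 fold change of -0.41 (SE 0.12, edgeR adjusted p = 0.181) and was the 1 gene of the list that DESeq2 called, *Abca9*, a lipid transporter, had -0.29 (edgeR adjusted p = 0.186) and *Ntn4*, a netrin, -0.19 (edgeR adjusted p = 0.564). The 10 macrophage genes, *Lyz2* included, summed to 1391 to 1443 CPM in controls and 617 to 819 CPM in LysM-Cre mice, and 1 of them, *Lyz2*, was called by edgeR. *Lyz2* alone had 390 to 425 CPM in controls and 0.43 to 0.81 CPM in LysM-Cre mice. Because Cre interrupts it, this part of the gap between the sums does not report on macrophages. Of the 10, with *Lyz2* counted, 7 had an unadjusted p under 0.05 (14.5% of all genes) and 8 did not overlap between the groups (20.4% of all genes). DESeq2 called 5 of the 10, among them *Adgre1* and *Csf1r*, and 685 genes in all. Of 10 tendon fibroblast genes *Dcn*, a matrix proteoglycan, was called by edgeR (log2 fold change -0.45, edgeR adjusted p = 0.0301), and of 9 chondrocyte genes tested *Acan*, the cartilage aggrecan, was called (0.60, edgeR adjusted p = 0.0298). Both calls were lost with the block for pairs and without any one mouse except LysM-Cre 2, and that of *Dcn* also with the muscle score as covariate. DESeq2 called 4 of the 9 chondrocyte genes, *Acan*, *Comp*, *Matn3* and *Sox9*. The fit with the muscle score called 3, among them *Acan* and *Sox9*. In the main fit, 4 of the 9 estimates were above 0 and 5 below. Of 7 endothelial, 7 adipocyte, 14 muscle, 5 melanocyte and 3 T cell genes tested, edgeR called 0, while DESeq2 called *Tek* and *Cldn5* of the endothelial and *Lep* of the adipocyte list. How much nerve each tissue piece held was not measured, and its part in these differences was not tested.

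The 5 genes outside all lists whose library profile was most like the mean of the 8 genes were *Egfl8*, *Gjc3*, *Smco3*, *Ddn* and *Frmd3*. Pearson's r over the 6 libraries was 0.997 for *Egfl8*, *Gjc3* and *Smco3* and 0.996 for *Ddn* and *Frmd3*, given without a test because the genes were picked for it out of the whole table and share its libraries. *Gjc3* encodes a connexin of myelinating glia, and it had 535, 152 and 1840 reads in the control and 1109, 863 and 353 reads in the LysM-Cre libraries. All 5 had the library order of *Mbp*, and 0 of the 5 differed between the genotypes by edgeR, with log2 fold changes between -0.81 and -0.05, or between 0.10 and 0.42 in the fit with a block for each pair. As the 5 genes were picked for this profile, neither their order nor the lack of calls is a separate result.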

How the data were processed

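RNA from injured Achilles tendon tissue of 6 mice was sequenced on the BGISEQ platform. The genome build was GRCm38.p6 per the labels, and the aligner and counter are not given in the sources used here. The authors deposited estimated counts of reads per RefSeq transcript (65053 transcripts), not normalized, and TPM values scaled to length and to a common total. Another 20 value columns (6 FPKM, 6 normalized counts, 8 group averages) were not used. Symbols were assigned by NCBI Gene identifier to 18049 of 18099 genes.

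Counts were summed per gene and rounded. Genes passing filterByExpr (14261) were tested with edgeR 4.0.16 in R 4.3.3 (TMM, quasi-likelihood F test, Benjamini-Hochberg, threshold 0.05) on 3 against 3 libraries. Standard errors are the estimate over the square root of F. DESeq2 1.42.0, other scalings and filters, a replicate block, a muscle score covariate, single transcripts and leaving out each mouse were alternatives. CPM use library totals scaled by the TMM factors, and 0.5 was added before taking logs. The scripts were tested on simulated data. No label names separate litters or preparations, so p-values measure the spread between these samples only. Deviations of same-numbered libraries from their group means had r = 0.130, 0.133 and 0.320. Differently numbered libraries were not compared, so these values cannot show a pairing. The pairs by replicate number are therefore an assumption, since no label names pairs. With the block, 47 genes were called in place of 128, and 38 were in both.

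Start sites are from GENCODE M21 (GRCm38), through its RefSeq map. Transcripts not in the map (6 of *Mbp*, 2 of *Pmp22*) were left out of the start-site sums.

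The 8 genes and all lists were chosen with earlier results of these data known. Genes named are, in each nerve list, those called and otherwise the 3 with the smallest unadjusted p, and in the lists of other cells those called by edgeR, some called by DESeq2 and some defining markers, the rest being given as counts and sums, with *Mag*, *Erbb3*, *Ngfr*, *Prkaa1* and *Lyz2*, and the 5 genes outside the lists most correlated with the mean of the 8. Of the compact myelin list, 16 genes are reported, and the others are not reported here.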

Additional observations from a re-analysis of the deposited data

How the results depend on the processing

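The count of the 8 genes called was 0 in every alternative run, with smallest adjusted p-values among them between 0.342 and 0.762 over the 13 alternatives run on genes. The count over all genes was 128 and moved to 685 with DESeq2, 47 with the replicate block and 76 with the muscle score as covariate, and to between 8 (without control 2) and 276 (without LysM-Cre 2) when a mouse was left out; it was 10 without control 1, 24 without control 3, 12 without LysM-Cre 1 and 60 without LysM-Cre 3. The replicate block turned the sign of *Mbp* (0.97), *Prx* (0.50), *Pmp2* (0.13), *Mag* (0.49), *Erbb3* (0.0629), *Ugt8a* (0.53), *Cldn19* (0.65), *Egfl8* (0.1144), *Gjc3* (0.42), *Smco3* (0.26), *Ddn* (0.32) and *Frmd3* (0.104), ended the calls of *Ncam1*, *Acan* and *Dcn*, and changed no other call named here. The muscle score turned *Sox10* (-0.10), *Egr2* (-0.0572), *Tubb3* (0.24) and *Prph* (-0.103), and ended the calls of *Ncam1* and *Dcn*. *Erbb3*, at -0.0009, also turned with DESeq2 (0.0075), RLE scaling (0.0061) and no filter (0.0004). Leaving out 1 mouse gave log2 fold changes of -1.21 to 1.45 for *Mbp*, -0.89 to 0.66 for *Pmp22*, -1.01 to 1.16 for *Prx*, -1.42 to 0.96 for *Pmp2*, -0.76 to 0.0232 for *S100b*, -0.21 to 0.49 for *Sox10*, -0.0019 to 0.39 for *Cdh19*, -0.12 to 0.64 for *Egr2*, -0.98 to 1.35 for *Mag*, -0.23 to 0.38 for *Erbb3*, -0.70 to 0.30 for *Cadm4*, -0.84 to 0.44 for *Nfasc*, -0.17 to 0.02 for *Lamc1*, -1.34 to 1.37 for *Ugt8a*, -0.93 to 1.49 for *Cldn19*, -0.24 to 0.0671 for *Tubb3*, -0.0424 to 0.20 for *Prph*, -0.40 to 0.59 for *Egfl8*, -0.65 to 1.17 for *Gjc3*, -1.03 to 1.15 for *Smco3*, -1.39 to 1.27 for *Ddn* and -1.17 to 1.05 for *Frmd3*. Over 41 named genes, 453 of 530 values kept their direction and side of the threshold. The cause of these shifts was not tested. Control 2 had 24 reads of *Pmp2* and 331 of *Mbp*, and the part of counting error in the spread was not tested.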
